A study of Mus musculus with 12 samples.

Results

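The comparison described here asks of each gene whether its response to colon injury differed between mice without Parp1 and wild-type mice: the change between injured and uninjured Parp1-/- colon, minus the same change in wild-type colon. It used all 12 arrays of the series, 1 per mouse, in 4 groups of 3 mice, and 21314 genes. The groups were Parp1-/- mice given dextran sulfate sodium (DSS), Parp1-/- mice given water, wild-type mice given DSS and wild-type mice given water, where DSS was 4% in the drinking water for 7 days. All mice were 6 to 8 weeks old and kept in a conventional facility free of common mouse pathogens, and RNA came from the whole washed colon, with every layer of the gut wall in it. The strain, the way Parp1 was inactivated, and whether wild-type mice were littermates are not stated in the labels.

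DSS is a sulfated polysaccharide that injures the lining of the colon, and mice that drink it develop colitis. Parp1 is the enzyme that senses broken DNA and attaches chains of ADP-ribose to itself and to nearby proteins, using up NAD+; it also takes part in transcription, among others of genes that NF-kappaB drives. In the colon, goblet cells secrete the mucus that holds bacteria off, colonocytes absorb salt and water and make antimicrobial proteins, and neutrophils and macrophages enter when this barrier breaks.

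Each value is on a log2 scale on which the median of the 12 arrays is 0 for every probe set. A gene can thus be compared between mice, its level cannot be set against that of another gene, and the presence of colon markers could not be checked by level. Base 2 and larger values for more RNA were assumed, since neither is stated. A gene was called where limma's test of the difference of DSS responses gave an adjusted p under 0.05. A positive difference means that the DSS response was higher in Parp1-/- mice. Errors are the model's standard errors (SE), with 3 mice per group throughout. In RNA of a whole organ, fewer cells of a type and less RNA per cell cannot be told apart.

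Parp1 itself had a difference of responses of -0.06 ± 0.46, with a limma adjusted p of 0.959. Parp1 was at -0.22, -0.09 and 0.03 after DSS and -0.03, -0.08 and -0.01 in water in Parp1-/- mice, against 0.01, 0.51 and 0.77 after DSS and -0.41, 1.15 and 0.53 in water in wild-type mice. The lowest Parp1 value of all 12 was that of the array labelled wild-type water 1, and the one labelled wild-type DSS 1 lay within the range of the Parp1-/- arrays. Whether the probe set reads the altered stretch of the gene is not stated, which makes this a weak check of the labels.

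Several arrays stood apart in ways that touch every result below. The mean of 16 housekeeping genes, which nearly all cells use, was between -0.0048 and 0.18 in the 6 Parp1-/- arrays. It was at -0.80 in wild-type DSS 1, at 0.07 and 0.40 in wild-type DSS 2 and 3, and between -1.68 and -0.99 in the 3 wild-type water arrays. The 3 wild-type water arrays and wild-type DSS 1 were also the most spread, with an SD over all probe sets of 0.666 to 0.871, against 0.256 to 0.394 in the 8 others. The median of 1056 odorant and pheromone receptor genes, which colon hardly uses, was 0.38 to 0.42 in those 4 arrays and -0.12 to 0.05 in the 8 others. The mean of 18 smooth muscle genes was at 2.42 in Parp1-/- DSS 1 and at 2.45 and 2.37 in Parp1-/- water 2 and 3, against -0.40 to 0.0031 in the other 9 arrays. Xist, the RNA that silences an X chromosome in females, was at 5.47 in Parp1-/- water 3 and between -0.18 and 0.45 in the others, and the Y-linked Kdm5d was lowest in that same array, at -3.07. The part these features played in the differences below was not tested beyond the alternative fits that are given beside them.

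**Figure D1:**
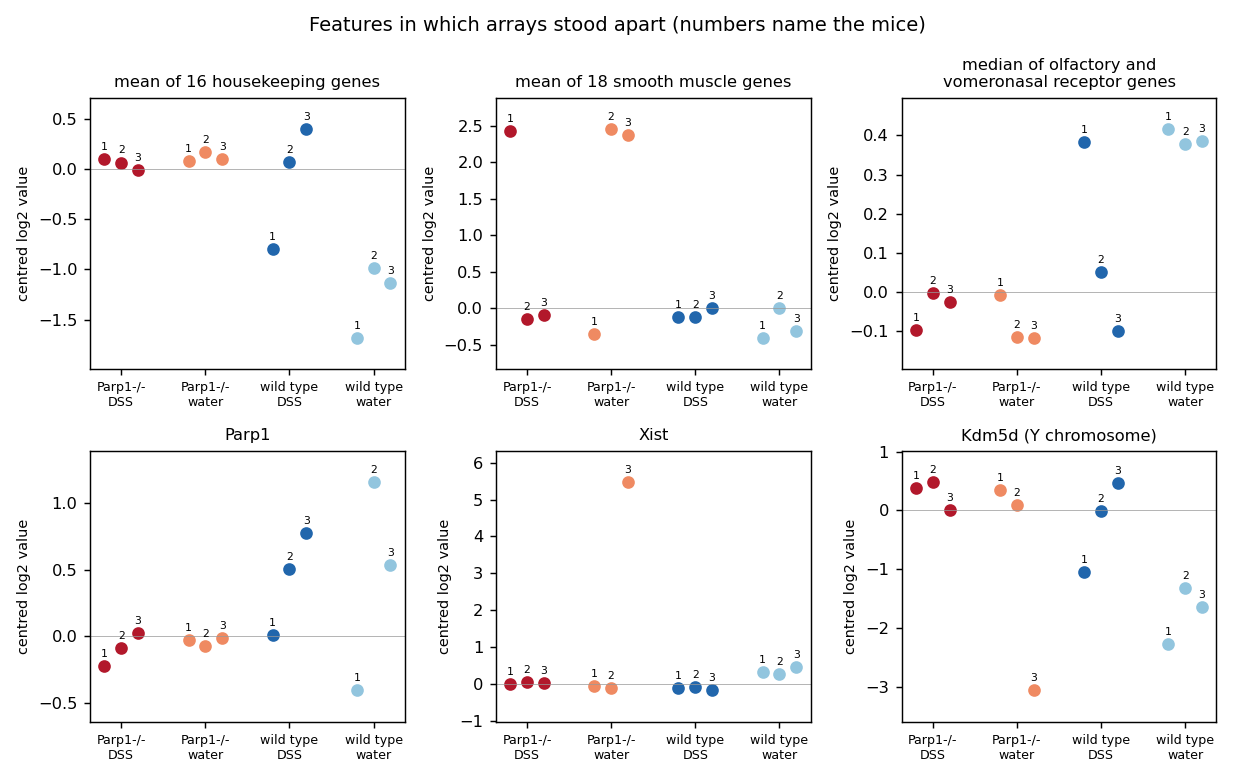
Each point is 1 array, in centred log2 units on the vertical axis, with the 4 groups side by side and the mice numbered. The 3 wild-type water arrays and wild-type DSS 1 lay lowest in the housekeeping mean, the 3 arrays above 2 in the smooth muscle mean were Parp1-/- DSS 1 and Parp1-/- water 2 and 3, and Xist was high in Parp1-/- water 3 alone.

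The DSS response was higher in Parp1-/- mice for 46 genes, 0.216% of those tested, and lower for 496, 2.33% of those tested. Over the 496 lower genes the median difference of responses was -1.93. The median response of these genes was -0.05 in Parp1-/- mice and 1.90 in wild-type mice. Set side by side within a treatment, Parp1-/- and wild-type mice differed by a median of 0.13 after DSS and 2.11 in water. Over the 46 higher genes the median difference was 1.04, with a median response of 0.10 in Parp1-/- mice and -0.95 in wild-type mice. For them the genotypes differed by a median of 0.02 after DSS and -1.02 in water. Over all 21314 genes the median difference of responses was 0.05. These medians describe genes that the same test selected, and the comparisons they come from share arrays.

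The called genes therefore had a common shape: both DSS groups and Parp1-/- water lay close together, and wild-type water lay apart. In 490 of the 496 lower genes the 3 wild-type water arrays were below all 9 others, a pattern found in 1923 genes or 9.02% of all. In 45 of the 46 higher genes they were above all 9 others, as in 2038 genes or 9.56% of all. The test uses that group, so these counts describe the calls and add no support to them. The wild-type water arrays are also the 3 lowest in the housekeeping mean. Of the 46 higher genes 7 were olfactory receptor genes (Olfr symbols), counted after the calls were seen. That is 0.824% of the 850 such genes measured, beside 0.216% of all genes called higher. None of the 850 was called lower, beside 2.33% of all genes.

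No call was left after quantile normalization between arrays, where 2073 genes had an unadjusted limma p under 0.05 against 3737 with the values as deposited. None was left either without the 3 arrays high in smooth muscle genes, where 1121 genes had such a p and Parp1-/- water was 1 array, assumed to vary like the other groups. With the housekeeping mean of each array as a covariate, 704 genes were higher and 252 lower, so the balance of the calls turned round, and 158 of the 542 original calls remained. Without wild-type DSS 1, the array whose housekeeping mean was closest to that of wild-type water, 670 genes were higher and 2508 lower. Without wild-type DSS 2 and 3, which leaves that 1 array for the group and makes the same assumption, 58 were higher and 176 lower. Every one of the 542 called genes kept the sign of its difference under all of these settings. Leaving out 1 of the 12 arrays at a time gave 3 to 670 higher and 174 to 2508 lower genes. In 168 genes, 3 higher and 165 lower, the call held in all 12 of these fits.

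**Figure D2:**
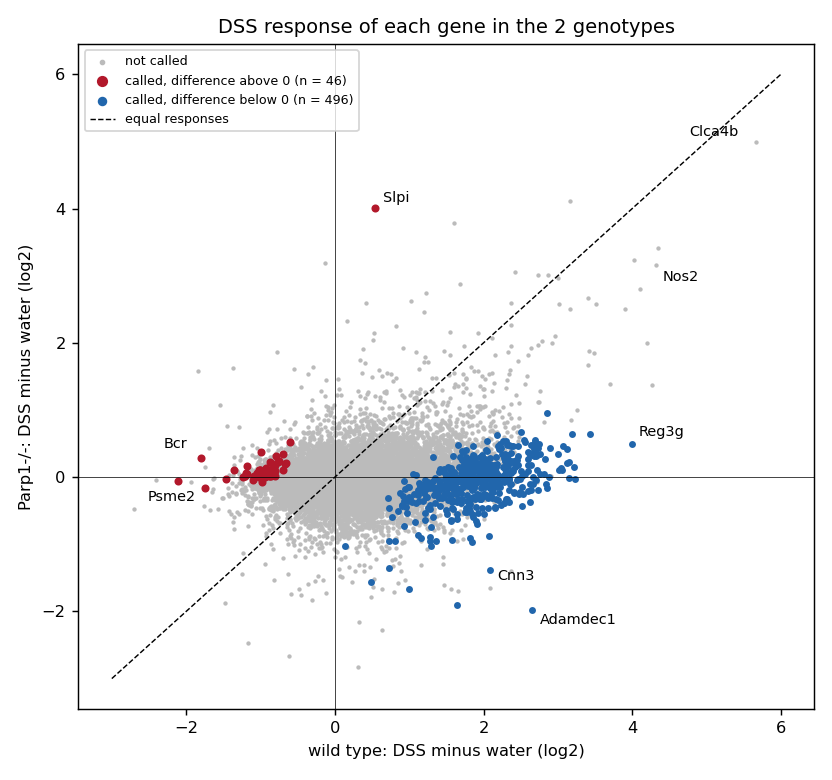
Each point is 1 of the 21314 genes, with its DSS response in Parp1-/- mice on the vertical axis and in wild-type mice on the horizontal axis, both as log2 DSS minus water, and the dashed line marks equal responses. Called genes with a lower response in Parp1-/- mice lie along the horizontal axis to the right at a median wild-type response of 1.90, the higher ones to its left at a median of -0.95, and Slpi lies apart from both, with responses of 4.003 in Parp1-/- mice and 0.54 in wild-type mice.

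Slpi, the secretory leukocyte protease inhibitor that blocks neutrophil elastase and cathepsin G at mucosal surfaces, had the largest difference among the higher genes, at 3.46 ± 0.77 (limma adjusted p = 0.0389). It was at 2.48, 2.11 and 2.82 after DSS and -0.93, -1.95 and -1.72 in water in Parp1-/- mice, against -0.37, -0.09 and 1.97 after DSS and -0.67, 0.45 and 0.09 in water in wild-type mice. The 3 Parp1-/- DSS arrays were the highest of the 12 and the 3 Parp1-/- water arrays the lowest, while the wild-type groups overlapped and 1 wild-type DSS mouse reached almost the Parp1-/- DSS level. Slpi was the only higher gene in which wild-type water did not stand apart. Its DSS response was 4.003 in Parp1-/- mice and 0.54 in wild-type mice. The difference was 5.32 with the housekeeping covariate (adjusted p = 0.00721), over 1.5 times the value without it, and 3.94 after quantile normalization (adjusted p = 0.192). With single arrays left out it ran from 3.02 to 4.20 and stayed called in 4 of 12 fits.

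Reg3g, a lectin of the gut lining that kills Gram-positive bacteria, went the other way, with a difference of -3.51 ± 0.66 (limma adjusted p = 0.0199). It was at 0.55, 0.25 and -0.15 after DSS and -0.81, 0.07 and -0.07 in water in Parp1-/- mice, against 0.40, 0.81 and 0.77 after DSS and -2.95, -2.40 and -4.63 in water in wild-type mice. The wild-type water arrays lay far below the other 9, and the Parp1-/- water and DSS arrays overlapped. Its response was 0.49 in Parp1-/- mice and 3.99 in wild-type mice. With the housekeeping covariate the difference was -3.20 and no longer called (adjusted p = 0.0896), and it was called in 7 of the 12 fits with 1 array left out.

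The promoters of these 2 genes are shown because both products are secreted defence proteins of the inflamed colon and their differences had opposite signs. They are RefSeq's, on GRCm38.p6, and run from 250 bases before to 50 after the gene's start, read 5′ to 3′ on the gene's own strand. Capitals mark matches, on either strand, to the core TATA box, TATAAA. Slpi lies on the minus strand at chr2:164356458-164356757 and Reg3g on the minus strand at chr6:78468825-78469124.
Slpi: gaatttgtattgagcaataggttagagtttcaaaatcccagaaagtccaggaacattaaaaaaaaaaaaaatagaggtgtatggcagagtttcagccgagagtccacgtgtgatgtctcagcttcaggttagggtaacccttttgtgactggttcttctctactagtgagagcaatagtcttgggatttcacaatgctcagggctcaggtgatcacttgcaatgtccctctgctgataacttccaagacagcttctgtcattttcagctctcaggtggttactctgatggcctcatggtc
Reg3g: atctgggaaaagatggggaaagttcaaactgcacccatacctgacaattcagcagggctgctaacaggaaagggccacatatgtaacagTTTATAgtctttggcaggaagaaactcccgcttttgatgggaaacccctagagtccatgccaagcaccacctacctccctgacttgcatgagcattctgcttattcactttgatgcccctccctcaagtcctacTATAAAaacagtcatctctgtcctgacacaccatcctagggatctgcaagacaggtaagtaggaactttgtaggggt
A match began 161 bases before the start of Reg3g, on the other strand, and another 27 bases before it, on the gene's strand. These letters are not in the Slpi window. Of all 32851 RefSeq promoter windows of this length, 13.6% hold TATAAA on either strand. The matches describe the sequence and were not tested for use.

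Among the other higher genes, 2 kept their call with each array left out, with the housekeeping covariate alone and with the smooth muscle mean added, and without wild-type DSS 2 and 3: Psme2 and Defb3. Psme2 encodes a subunit of the PA28 proteasome activator, which interferon induces and which shapes peptides for MHC class I. It was at -0.34, 0.04 and 0.01 after DSS and 0.03, -0.15 and -0.01 in water in Parp1-/- mice, against -1.37, -0.89 and -0.51 after DSS and 1.60, 0.76 and 1.22 in water in wild-type mice. Wild-type water was highest and wild-type DSS lowest, with both Parp1-/- groups between them and overlapping each other. The difference was 2.06 ± 0.35, with a limma adjusted p of 0.0133. Defb3, a beta-defensin, was at 0.03, -0.07 and -0.20 after DSS and -0.06, -0.09 and -0.08 in water in Parp1-/- mice, against 0.03, 0.11 and -0.03 after DSS and 1.16, 1.21 and 1.44 in water in wild-type mice. Its 3 wild-type water values lay about 1 above the other 9, which overlapped. The difference was 1.24 ± 0.20, with a limma adjusted p of 0.00885. After quantile normalization the difference was 2.04 for Psme2 and 1.25 for Defb3, and neither was called (adjusted p of 0.192 for Psme2 and 0.230 for Defb3).

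Bcr, which turns off the small GTPase Rac, was at 0.11, -0.16 and 0.27 after DSS and -0.23, -0.06 and -0.34 in water in Parp1-/- mice, against -1.19, -0.10 and 0.06 after DSS and 1.22, 1.66 and 1.28 in water in wild-type mice. Wild-type water was highest, and wild-type DSS 1 was lowest, apart from the 2 other mice of its group. The difference was 2.08 ± 0.41 (limma adjusted p = 0.023), and it was 3.20 with the housekeeping covariate, over 1.5 times as large, and still called. The remaining 6 named higher genes had differences between 1.11 and 1.46. They were Rnase2b, a ribonuclease of the eosinophil family, at 1.46 ± 0.32, Ndufb3 of respiratory complex I at 1.37 ± 0.26, and Polg2, the accessory subunit of the mitochondrial DNA polymerase, at 1.35 ± 0.31. The others were Ly6k, a lipid-anchored protein known from sperm, at 1.13 ± 0.26, the complement component C8g at 1.12 ± 0.24 and the ribosomal protein Rps27 at 1.11 ± 0.25. In all 6 the wild-type water arrays were above the other 9. With 1 array left out they were called in 2 to 7 of 12 fits, Ly6k and Rps27 in 2, Polg2 in 3. Rnase2b and Ly6k lost the call with the housekeeping covariate (adjusted p of 0.0871 for Rnase2b and 0.0583 for Ly6k).

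The largest difference of all was that of Adamdec1, a secreted metalloprotease-like protein of gut macrophages and stroma, at -4.64 ± 1.03 (limma adjusted p = 0.0395). It was at 0.97, -0.29 and -1.39 after DSS and 0.29, 2.54 and 2.41 in water in Parp1-/- mice, against -0.51, 0.46 and 1.78 after DSS and -2.37, -1.78 and -2.10 in water in wild-type mice. Parp1-/- water 2 and 3 were highest, wild-type water lowest, and the DSS groups overlapped. The 2 highest arrays were also high in smooth muscle genes. Without wild-type DSS 2 and 3 the difference was -3.55 and with the housekeeping covariate -2.59, the second of them smaller by over 1.5 times, and neither was called. Cnn3, an actin-binding calponin, had the same order of groups and a difference of -3.47 ± 0.53 (limma adjusted p = 0.00759). It was at -0.04, 0.02 and -0.80 after DSS and 0.24, 1.56 and 1.51 in water in Parp1-/- mice, against 0.0049, 0.83 and -0.0049 after DSS and -2.07, -1.52 and -1.84 in water in wild-type mice. Its call held with each array left out and was lost with the housekeeping covariate (adjusted p = 0.0508).

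The other 7 named lower genes came from general cell functions, and in each the 3 wild-type water arrays were below the other 9. Mob1b, a co-activator of the Hippo kinases, was at -0.24, 0.03 and 0.00018 after DSS and 0.06, -0.31 and 0.09 in water in Parp1-/- mice, against 0.36, 0.43 and -0.00018 after DSS and -3.37, -2.47 and -2.80 in water in wild-type mice. The other 9 arrays lay within 1 log2 unit of each other, and each wild-type water array lay over 2 units below all of them. The difference was -3.16 ± 0.33 (limma adjusted p = 0.00177). Cript, a protein that binds PDZ domains, had the smallest adjusted p of any gene, 0.00169, for a difference of -2.95 ± 0.26. It was at -0.14, 0.29 and 0.46 after DSS and 0.15, 0.04 and 0.10 in water in Parp1-/- mice, against -0.04, 0.38 and -0.06 after DSS and -2.88, -2.92 and -3.08 in water in wild-type mice. Both kept their call with every array left out, with the housekeeping covariate and without wild-type DSS 2 and 3. The same held for Senp6, a SUMO protease, at -3.02 ± 0.40, for Cct4, a subunit of the chaperonin that folds actin and tubulin, at -2.99 ± 0.40, and for Atad1, an ATPase that pulls misplaced proteins out of mitochondrial membranes, at -2.95 ± 0.43. Under the housekeeping covariate Atad1 was at -1.92, smaller by over 1.5 times. Acap2, which switches off the small GTPase Arf6, was at -3.06 ± 0.49, and Cox20, an assembly factor of cytochrome c oxidase, at -3.25 ± 0.76. Acap2 was at -2.78 and still called with the housekeeping covariate, and Cox20 at -3.33 and not called. Acap2 lost the call once the smooth muscle mean was added (adjusted p = 0.0599). Without wild-type DSS 2 and 3, Acap2 was at -2.52 (adjusted p = 0.0704) and Cox20 at -3.81 (adjusted p = 0.0878), neither of them called. Cox20 was called in 3 of 12 fits with 1 array left out.

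**Figure D3:**
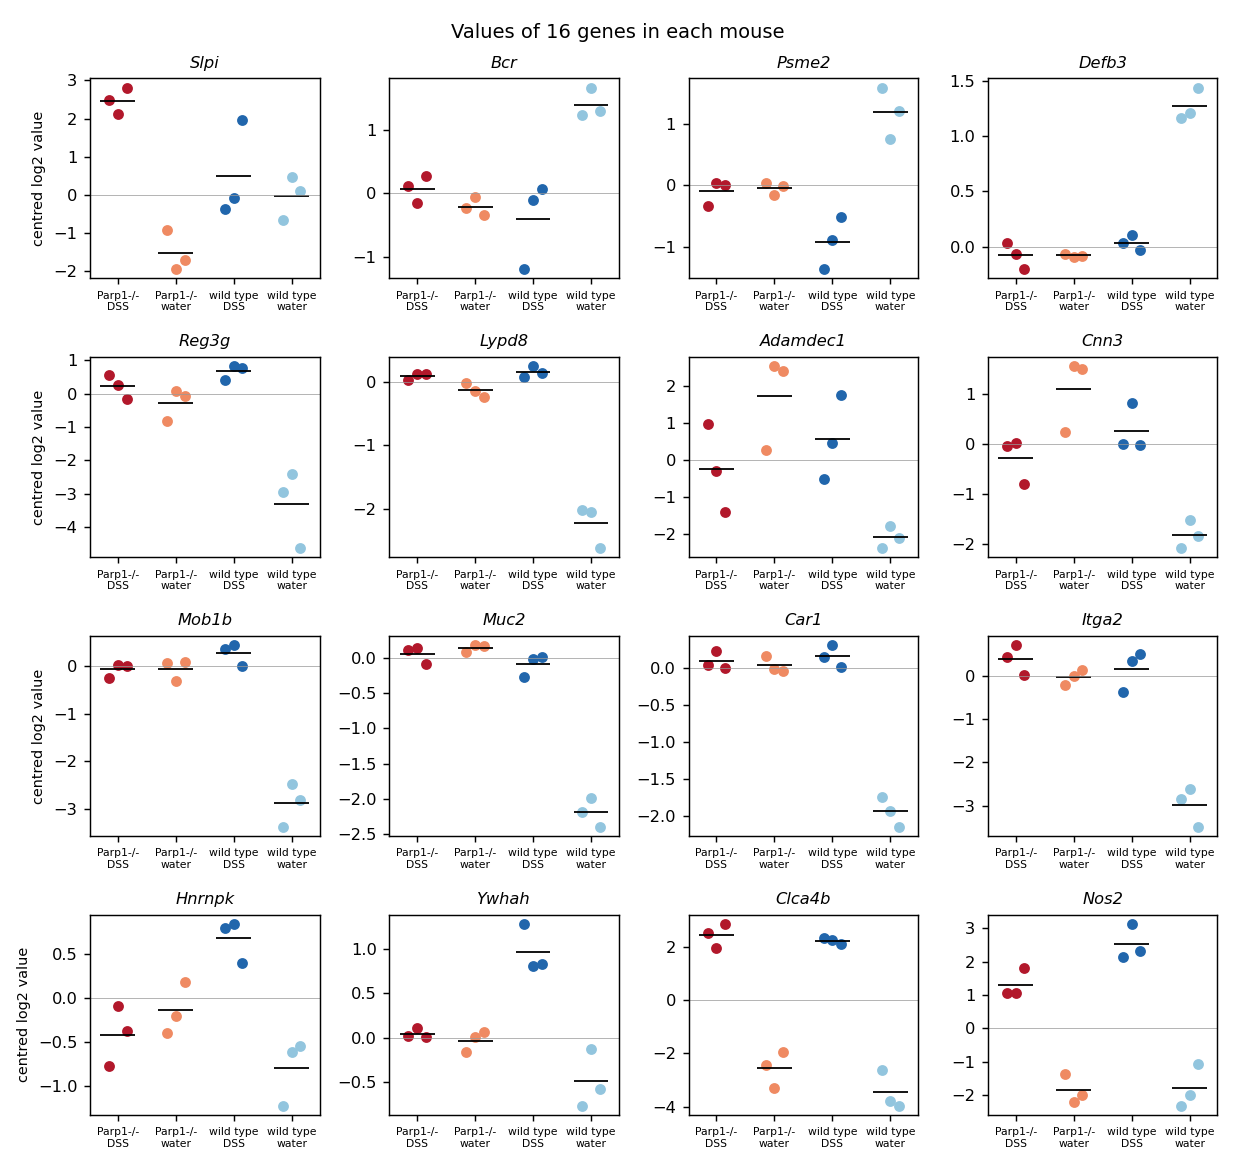
Each panel shows 1 gene, with every mouse as a point in centred log2 units on the vertical axis, the group mean as a bar and the groups side by side from Parp1-/- DSS to wild-type water. Wild-type water stood apart in Bcr, Psme2, Defb3 and the 8 panels from Reg3g to Itga2, Parp1-/- water was lowest in Slpi, wild-type DSS was highest in Hnrnpk and Ywhah, and both DSS groups were above both water groups in Clca4b and Nos2.

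Goblet cell and mucus genes were the list with the most negative median, -1.43 over 20 measured genes, beside 0.05 over all genes. Of these 20, 7 had a lower DSS response in Parp1-/- mice, none a higher one, and 12 had an unadjusted p under 0.05. Over all 21314 genes 2.33% were called lower and 0.216% higher, and 3737 had an unadjusted limma p under 0.05. Counts in this and the later lists are to be read beside these. Higher calls were so rare that their absence from a list of this size says little. Muc2, the gel-forming mucin of colon mucus, was at 0.11, 0.15 and -0.09 after DSS and 0.08, 0.18 and 0.17 in water in Parp1-/- mice, against -0.27, -0.01 and 0.01 after DSS and -2.19, -1.99 and -2.40 in water in wild-type mice. Wild-type water was far below the 9 others, which lay close together. Its difference was -2.19 ± 0.22 (limma adjusted p = 0.00177), with responses of -0.09 in Parp1-/- mice and 2.10 in wild-type mice. Klk1, the tissue kallikrein, had a difference of -2.47 ± 0.25, and Agr2, the isomerase that helps Muc2 fold, of -2.27 ± 0.33. The membrane mucin Muc13 had -1.996 ± 0.27. The other 3 called members were Muc4, another membrane mucin, Clca1, a protease of the mucus layer, and Zg16, a lectin that binds Gram-positive bacteria in it. The list mean was at 0.38, 0.08 and 0.12 in Parp1-/- DSS, 0.18, 0.25 and 0.20 in Parp1-/- water, -0.67, 0.11 and 0.39 in wild-type DSS and -1.44, -1.44 and -1.48 in wild-type water. The housekeeping list had a median of -1.35 over its 16 genes, of which 11 had an unadjusted p under 0.05 and 1 was called, the 14-3-3 adaptor Ywhaz at -1.88 ± 0.31. With the housekeeping covariate the goblet list's median was -0.26, after quantile normalization -0.71 and without wild-type DSS 2 and 3 -0.42. Muc2, Klk1, Agr2 and Muc13 kept their calls with that covariate and without those 2 arrays.

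Of 26 measured colonocyte genes, 9 had a lower DSS response in Parp1-/- mice and none a higher one, with a median of -0.85. Over all genes the shares were 2.33% lower and 0.216% higher. Car1, a carbonic anhydrase of surface colonocytes, was at 0.04, 0.23 and -0.01 after DSS and 0.16, -0.01 and -0.04 in water in Parp1-/- mice, against 0.15, 0.31 and 0.01 after DSS and -1.74, -1.93 and -2.15 in water in wild-type mice. The 3 wild-type water values were far below the other 9, which overlapped between groups. The difference was -2.04 ± 0.22 (limma adjusted p = 0.00181). The adhesion molecules Cdh17, Cdh1 and Ceacam1 had differences of -2.14 ± 0.37, -1.82 ± 0.39 and -1.81 ± 0.24. Epcam, the pan-epithelial adhesion molecule, the keratins Krt18 and Krt20, Car4 and the lectin Lgals4 were the other 5. With the housekeeping covariate the list's median was 0.21, so its sign turned, while Car1 and Ceacam1 were still called and Cdh17 and Cdh1 were not. Prom1, which marks membrane protrusions and was the 1 called of 14 stem cell and Wnt target genes, had -1.79 ± 0.30. Itga2, the collagen-binding integrin subunit and the 1 called of 14 epithelial repair genes, had -2.70 ± 0.40.

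Antimicrobial proteins had calls in both directions. Among 20 measured members Slpi was higher, and Reg3g, Lypd8 and Zg16 were lower, beside 0.216% higher and 2.33% lower over all genes. Of the 20 members, 15 had a difference below 0 and 5 above. The beta-defensin Defb3, given above and not in the list, was also higher. Dmbt1, a mucosal defence gene outside the list that was looked at after the calls were seen, was called lower. Its call held with each array left out and with the housekeeping covariate. Lypd8, which coats flagellated bacteria and keeps them off the colon surface, was at 0.02, 0.13 and 0.12 after DSS and -0.02, -0.16 and -0.24 in water in Parp1-/- mice, against 0.07, 0.24 and 0.14 after DSS and -2.03, -2.05 and -2.62 in water in wild-type mice. Wild-type water was lowest with no overlap, and the other 9 arrays lay close to 0. Its difference was -2.15 ± 0.25 (limma adjusted p = 0.00195) and that of Zg16 -1.71 ± 0.21. Both were called with the housekeeping covariate and without wild-type DSS 2 and 3. The list's median was -0.51, and 0.04 after quantile normalization.

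Dividing-cell genes had a median of -0.99 over 24 measured members, with 4 lower, none higher and 11 at an unadjusted p under 0.05. Over all genes 2.33% were called lower and 0.216% higher. Cdk1, the kinase that drives entry into mitosis, was at 0.44, -0.47 and -0.09 after DSS and 0.09, 1.14 and 1.37 in water in Parp1-/- mice, against -0.39, 1.08 and 0.59 after DSS and -1.61, -1.28 and -1.26 in water in wild-type mice. Parp1-/- water 2 and 3, which are 2 of the 3 arrays high in smooth muscle genes, were the highest of the Parp1-/- arrays, and wild-type water was lowest. The difference was -2.72 ± 0.57 (limma adjusted p = 0.031). Mki67, the proliferation marker, had -1.97 ± 0.41, the mitotic kinase Plk1 -1.67 ± 0.38 and the replication helicase subunit Mcm4 -1.35 ± 0.30. None of the 4 was called with the housekeeping covariate, and the list's median was then 0.10.

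The 5 lists on energy metabolism and on protein synthesis, breakdown and folding held 14 called genes, all lower. That is 13.0% of their 108 measured genes, beside 2.33% of all genes called lower. In each of these lists but the chaperones the mean of wild-type DSS 1 lay among those of the wild-type water arrays. It was at -1.28 for respiratory chain genes, against -1.49, -1.09 and -1.24 in wild-type water, and at -1.24 for fatty acid oxidation genes, against -1.44, -0.96 and -1.04 in wild-type water. Respiratory chain subunits had a median of -1.35 over 25 genes with 3 lower: Uqcrc2 of complex III at -2.02 ± 0.35, and Ndufa10 and Ndufs3 of complex I at -1.83 ± 0.43 and -1.28 ± 0.29. Fatty acid oxidation genes had a median of -1.31 over 18 genes, where Acaa2 and Hadh, which carry out the last steps of the beta-oxidation cycle, were lower at -1.92 ± 0.44 and -1.79 ± 0.40. Cytosolic ribosomal protein genes had a median of -0.54 over 20 genes, and 4 were lower: Rps4x at -2.40 ± 0.45, Rpl10a at -2.23 ± 0.44, Rpl4 at -2.17 ± 0.30 and Rps6 at -1.46 ± 0.30. Ribosomal genes outside the list were looked at after the calls were seen. Among them Rpl28, Rpl41, Rpl23a and Rpl6l were called lower and Rps27, given above, higher. Of these, Rpl28, Rpl41 and Rps27 kept the call with the housekeeping covariate. Constitutive proteasome subunits had a median of -0.93 over 24 genes, with Psma2, Psmd2 and Psmb7 lower at -2.17 ± 0.49, -2.16 ± 0.30 and -1.72 ± 0.32. Chaperones of the endoplasmic reticulum and its stress response had a median of -0.84 over 21 genes, none of them above 0, and the lectin chaperone Canx and the disulfide isomerase Pdia3 were lower at -2.17 ± 0.26 and -1.43 ± 0.33. With the housekeeping covariate these 5 medians were -0.09 for respiratory chain, 0.41 for fatty acid oxidation, -0.13 for ribosomal, 0.46 for proteasome and 0.23 for chaperone genes. Of the 14 called genes 3 kept their call with it, Rpl4, Psmd2 and Canx, and 11 lost it. In 7 of the 11 the difference became smaller by over 1.5 times, to -1.29 for Uqcrc2, -0.73 for Ndufa10, -0.86 for Acaa2, -0.79 for Hadh, -1.16 for Rps4x, -1.15 for Rpl10a and -0.88 for Rps6.

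The respiratory chain list holds nuclear genes only, and subunits encoded by the mitochondrial genome were looked at after their values were seen. Of 10 measured, 9 were lower (2.33% over all genes) and none higher (0.216% over all genes): ND1, ND2, ND3, ND4, ND4L and ND5 of complex I, CYTB of complex III, and COX1 and COX3 of complex IV. Their differences lay between -2.36 in COX3 and -1.83 in COX1, with wild-type water below the other 9 arrays in each. All 9 were still called with the housekeeping covariate, and 8, all but ND3, also held with each array left out and without wild-type DSS 2 and 3. ND6, the one not called, had a difference of -2.89 ± 1.23 (limma adjusted p = 0.256). The nuclear complex III subunit Uqcrb, not in the list either, was at -1.94 ± 0.26 and held under these settings too, whereas Ndufb3 of complex I, given above, was higher. The nuclear subunits Ndufs4 and Cox6a1, also outside the list, were called lower, and both lost the call with the housekeeping covariate.

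Among the 14 called genes of those 5 lists, Rpl4 shows a second pattern within the wild-type DSS group. It was at 0.04, 0.20 and -0.06 after DSS and 0.18, 0.17 and 0.26 in water in Parp1-/- mice, against 1.15, 0.64 and 0.21 after DSS and -1.48, -1.38 and -1.20 in water in wild-type mice. Wild-type DSS 1 was the highest array here, whereas in Uqcrc2 it was at -0.88 against 0.01 and 0.10 in wild-type DSS 2 and 3. The difference of Rpl4 was -2.17 ± 0.30 (limma adjusted p = 0.00471) and stayed called with the housekeeping covariate, at -2.74.

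Circadian clock genes had 2 lower members of 17, beside 2.33% of all genes: the transcription factor Clock at -2.05 ± 0.31 and the repressor Nr1d2 at -1.67 ± 0.24. Nr1d2 was at -0.08, 0.20 and -0.38 after DSS and 0.96, 0.78 and 0.85 in water in Parp1-/- mice, against -0.16, 0.08 and 0.08 after DSS and -0.71, -0.82 and -0.63 in water in wild-type mice. Parp1-/- water was highest and wild-type water lowest, and the DSS groups overlapped between them. The estimated responses had opposite signs, -0.95 in Parp1-/- mice and 0.72 in wild-type mice. Only the wild-type response was past the threshold (limma adjusted p of 0.018, against 0.165 in Parp1-/- mice). The labels state no hour of collection. Both genes kept their call with each array left out and with the housekeeping covariate. Nampt, the enzyme that recycles nicotinamide into the NAD+ that PARPs consume, was the 1 called of 20 genes of NAD synthesis and consumption, at -2.29 ± 0.48 (limma adjusted p = 0.0302). It was at -5.3e-05, -0.37 and 5.3e-05 after DSS and 0.03, 0.28 and 0.28 in water in Parp1-/- mice, against -0.91, 0.38 and 0.22 after DSS and -1.81, -1.73 and -2.68 in water in wild-type mice. Wild-type water was lowest, and wild-type DSS 1 lay next to it. Hmgcs1, an early enzyme of cholesterol synthesis, was the 1 called of 19 lipid synthesis genes, at -2.65 ± 0.62. Both lost the call with the housekeeping covariate, where Nampt was at -1.44 and Hmgcs1 at -0.77, each smaller by over 1.5 times.

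No member of the PARP family and ADP-ribose turnover list was called among 18 measured, with 4 at an unadjusted limma p under 0.05 and a median of -0.42. The sign of that median was not stable. It was -0.13 after quantile normalization, 0.60 with the housekeeping covariate and 0.13 without wild-type DSS 2 and 3. Over all 21314 genes, 3737 had an unadjusted limma p under 0.05. Parg, which removes ADP-ribose chains, had a difference of -1.21 ± 0.34 (limma adjusted p = 0.0969), and Parp8 of -0.88 ± 0.31. Base excision and single-strand break repair genes, the pathway in which Parp1 acts at nicked DNA, had a median of 0.26 over 15 genes. None was called and 3 had an unadjusted limma p under 0.05. Their median was -0.07 after quantile normalization, 0.47 with the housekeeping covariate and 0.31 without wild-type DSS 2 and 3. In this list the ligase Lig3 had -1.62 ± 0.43 and its scaffold partner Xrcc1 0.82 ± 0.27, neither past the threshold (limma adjusted p of 0.0791 for Lig3 and 0.143 for Xrcc1).

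Lists of inflammatory genes had positive median responses to DSS in both genotypes and no call on the difference. The 24 inflammatory cytokines and chemokines had a median response of 0.90 in Parp1-/- mice and 0.75 in wild-type mice, and a median difference of -0.03, with none called and 3 at an unadjusted p under 0.05. Their mean was at 0.21, 1.15 and 0.70 in Parp1-/- DSS, -0.43, -0.53 and -0.53 in Parp1-/- water, 1.05, 1.85 and 0.59 in wild-type DSS and -0.13, -0.18 and -0.10 in wild-type water. The DSS arrays were above the water arrays within each genotype, and the DSS arrays of the genotypes overlapped. Il23a, a subunit of interleukin-23, had the smallest p of the list, at 0.97 ± 0.34 (limma adjusted p = 0.169), followed by the growth factor Csf2 at 0.58 ± 0.22. The 18 neutrophil genes had a median response of 0.96 in Parp1-/- mice and 1.28 in wild-type mice and a median difference of -0.13, with none called and 0 at an unadjusted p under 0.05. Mmp8, the neutrophil collagenase, had -1.07 ± 0.55, and Lcn2, the iron-binding lipocalin, -1.07 ± 0.60. The 22 interferon response genes had a median difference of -0.13, with none called and 1 at an unadjusted p under 0.05. These counts stand beside 3737 of all 21314 genes at an unadjusted limma p under 0.05. After quantile normalization the median difference was 0.51 for cytokines and chemokines, 0.35 for neutrophil genes and 0.24 for interferon response genes, so each sign turned. With the housekeeping covariate these medians were -0.01, 0.08 and 0.20, in the same order.

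The DSS responses of 3 genes are given as examples chosen after their values were seen. Clca4b, of a family of chloride channel regulators, was at 2.50, 1.96 and 2.84 after DSS and -2.43, -3.28 and -1.96 in water in Parp1-/- mice, against 2.31, 2.25 and 2.09 after DSS and -2.61, -3.79 and -3.95 in water in wild-type mice. Both DSS groups lay far above both water groups, with no overlap. Its responses were 4.99 in Parp1-/- mice and 5.67 in wild-type mice, and the difference of -0.68 ± 0.56 had a 95% interval from -1.90 to 0.54. Nos2, the inducible nitric oxide synthase, was at 1.07, 1.06 and 1.80 after DSS and -1.37, -2.20 and -1.99 in water in Parp1-/- mice, against 2.15, 3.12 and 2.30 after DSS and -2.31, -1.99 and -1.06 in water in wild-type mice. All 3 wild-type DSS arrays were above all 3 Parp1-/- DSS arrays, and the water groups overlapped. The difference of -1.15 ± 0.53 had an interval from -2.31 to 0.01 and was not called (limma adjusted p = 0.292). Il1b, interleukin-1 beta, ranged widely among DSS mice, at 0.77, 3.93 and 1.25 in Parp1-/- and 3.38, 4.49 and 2.03 in wild-type mice, against -1.11, -1.60 and -1.57 in Parp1-/- water and -1.27, -1.10 and -0.77 in wild-type water. Its response was called in wild-type mice (limma adjusted p = 0.00358) and not in Parp1-/- mice (limma adjusted p = 0.419). Its difference of -0.93 ± 1.05 had an interval from -3.24 to 1.38. These intervals leave room for differences of over 1 log2 unit, so equal responses are not shown. After quantile normalization all 3 differences had the opposite sign, 1.06 for Clca4b, 0.86 for Nos2 and 0.97 for Il1b, and none was called there.

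The other immune lists held no call apart from Psme2. They do not hold every immune gene. Outside them the antibody heavy chain gene Ighm, looked at after the calls were seen, was called lower. So were Jak2, Irf2, Pycard, Naip6 and Il13ra1, looked at in the same way. Jak2 kept the call with each array left out and with the housekeeping covariate. Ighm, Irf2, Pycard, Naip6 and Il13ra1 lost it with that covariate. The light chain segment Igkv1-133, given below, was lower too. Macrophage and monocyte genes had a median of -0.75 over 15 genes, 3 of them at an unadjusted p under 0.05, with the complement genes C1qb at -1.82 ± 0.48 and C1qc at -0.78 ± 0.31. T and NK cell genes had a median of 0.21 over 15, B cell and plasma cell genes 0.03 over 13 and MHC class II genes -0.05 over 9. NF-kappaB subunits and feedback inhibitors had 0.15 over 15. Unadjusted p under 0.05 occurred in 1, 0, 2 and 1 genes of these 4 lists. In the NF-kappaB list the deubiquitinase Cyld had -1.04 ± 0.28 and the subunit Rela -1.09 ± 0.51, both with wild-type water below the other 9 arrays. Psme2 was the 1 called of 12 immunoproteasome and MHC class I loading genes, whose median was -0.11 and, with the housekeeping covariate, 1.25.

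Markers of the gut wall went with the arrays described above. Smooth muscle genes had a median of -1.01 over 18 and fibroblast and matrix genes -0.92 over 24, with none called in either and 0 and 2 at an unadjusted p under 0.05. Tagln, an actin-binding protein of smooth muscle, was at 3.45, -0.43 and 0.0026 after DSS and -0.27, 3.66 and 3.27 in water in Parp1-/- mice, against -0.0026, 0.02 and 0.26 after DSS and -0.67, -0.63 and -0.87 in water in wild-type mice. One Parp1-/- DSS mouse and 2 Parp1-/- water mice were over 3 above the rest, which sets the SE of 1.49 beside its difference of -2.03. Postn, a matrix protein of activated fibroblasts, had -3.34 ± 1.18. Without those 3 arrays the median was 0.19 for smooth muscle and 0.03 for fibroblast genes, so both signs turned. Endothelial, enteroendocrine and tuft, nerve and glia, adipocyte, squamous epithelial and hypoxia lists had no called member, and their medians ran from -0.41 to 0.41, with 2, 2, 0, 1, 3 and 6 genes at an unadjusted limma p under 0.05. Such a p was found in 3737 of all 21314 genes.

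Over the 34 lists, with 605 measured entries, 27 medians were below 0 and 16 lists held a called member. With the housekeeping covariate 18 of the medians changed sign, and 11 were below 0. Quantile normalization changed the sign of 9 and leaving out wild-type DSS 2 and 3 that of 11. The goblet, respiratory chain, ribosomal, smooth muscle, fibroblast, macrophage and stem cell medians were below 0 with the values as deposited and in these 3 settings. So was the housekeeping median, but the covariate is the mean of the same genes, so its sign in that fit tells nothing.

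**Figure D4:**
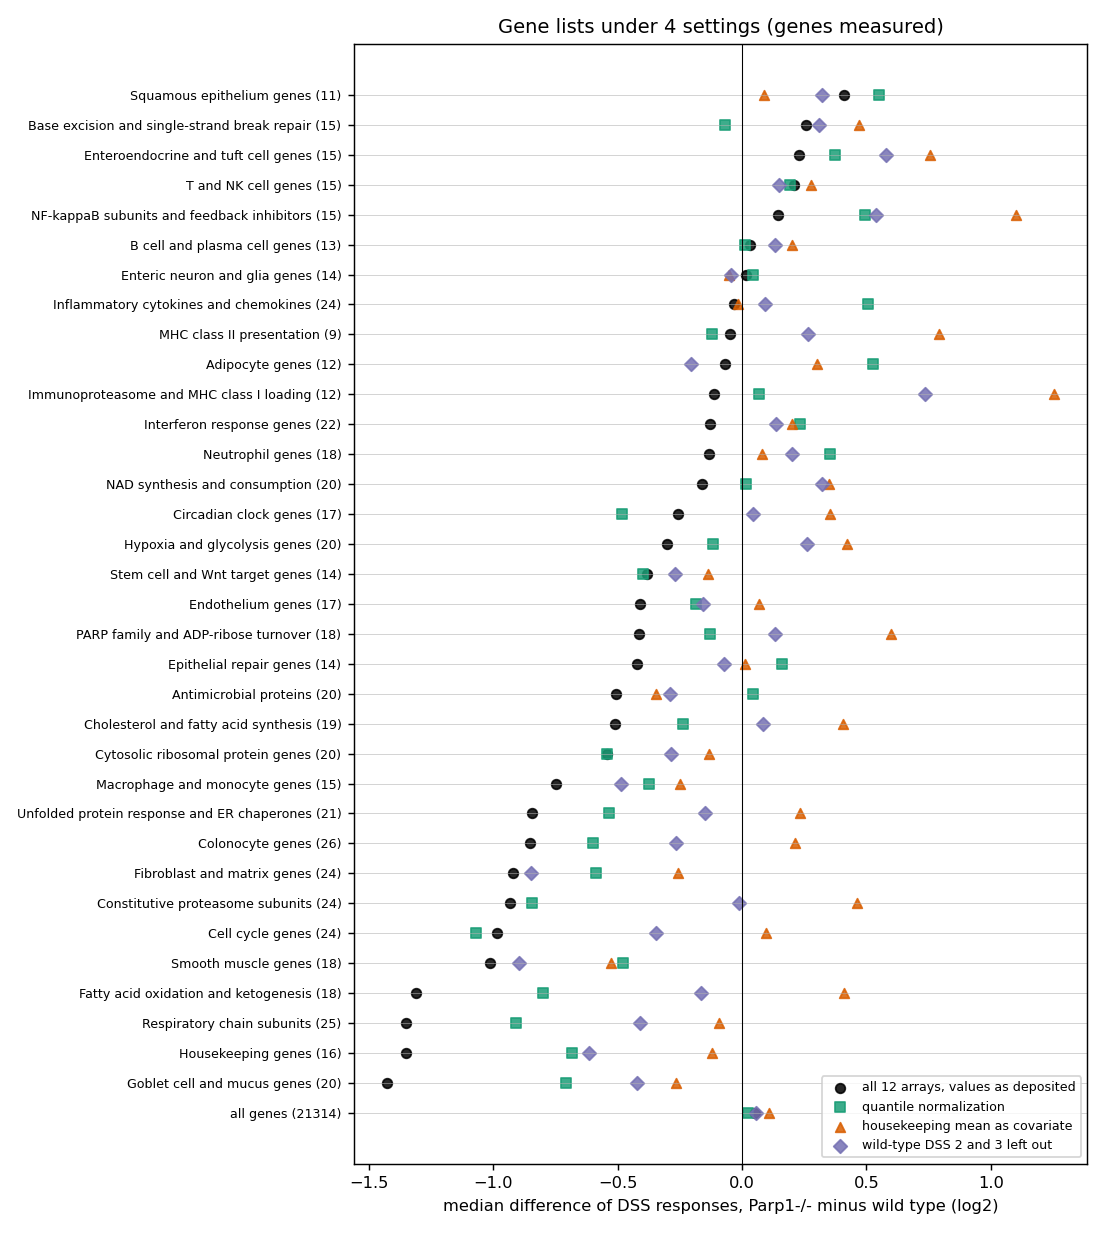
Each row is 1 gene list with its number of measured genes, and the horizontal axis is the median difference of DSS responses, Parp1-/- minus wild type, in log2 units, under 4 settings. Circles, for the values as deposited, were below 0 in 27 of 34 lists and reached -1.43 for goblet genes, and triangles, with the housekeeping mean as a covariate, were below 0 in 11.

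In 7 of the 542 called genes wild-type water did not stand apart, and these were named after their values were seen. Besides Slpi they include Hnrnpk, an RNA-binding protein, and Ywhah, a 14-3-3 adaptor protein, in which wild-type DSS was above all other arrays. Ywhah was at 0.02, 0.10 and 0.0049 after DSS and -0.17, 0.002 and 0.06 in water in Parp1-/- mice, against 1.29, 0.81 and 0.83 after DSS and -0.77, -0.13 and -0.59 in water in wild-type mice. Wild-type DSS stood above the other 9 arrays, among which wild-type water and Parp1-/- water overlapped. The difference was -1.39 ± 0.28 for Ywhah (limma adjusted p = 0.0242) and -1.74 ± 0.35 for Hnrnpk. Parp1-/- water was above all other arrays in Igkv1-133, an antibody light chain segment from a family of near-identical genes whose signals may mix. It was at -0.40, -0.46 and -0.20 after DSS and 1.41, 1.28 and 0.94 in water in Parp1-/- mice, against 0.12, 0.05 and 0.12 after DSS and -0.25, -0.05 and -0.85 in water in wild-type mice. The difference was -2.05 ± 0.30 (limma adjusted p = 0.00581), with responses of -1.57 in Parp1-/- mice and 0.48 in wild-type mice, and it held with each array left out, with the housekeeping covariate and without wild-type DSS 2 and 3. The small RNA gene AF357399 had the same pattern, at -1.17 ± 0.26. In Naca, a chaperone of new protein chains, and in n-R5s136, a 5S ribosomal RNA gene, no group stood apart, and their differences were -1.18 ± 0.22 and -3.54 ± 0.74.

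A total of 109 calls, 2 higher and 107 lower, held under all the covariate fits and left-out arrays mentioned for Psme2 and Defb3. The 2 higher ones were those genes. Among the 107, beyond genes already given, the largest differences chosen after seeing the values were those of Arhgap42 at -2.92 ± 0.44, Msl2, a ubiquitin ligase of the MSL chromatin complex, at -2.92 ± 0.41, and Cks2, a partner of cyclin-dependent kinases, at -2.92 ± 0.36. Gab2, a scaffold of receptor signalling, had -2.91 ± 0.39 and the ubiquitin-conjugating enzyme Ube2g1 -2.90 ± 0.42. Cks2 was at 0.16, -0.11 and -0.02 after DSS and -0.56, 0.15 and 0.14 in water in Parp1-/- mice, against -0.01, 0.71 and 0.31 after DSS and -2.75, -2.98 and -2.31 in water in wild-type mice. In it and in the other 4 the wild-type water arrays were the lowest. None of the 109 was called after quantile normalization or without the 3 arrays high in smooth muscle genes.

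**Figure D5:**
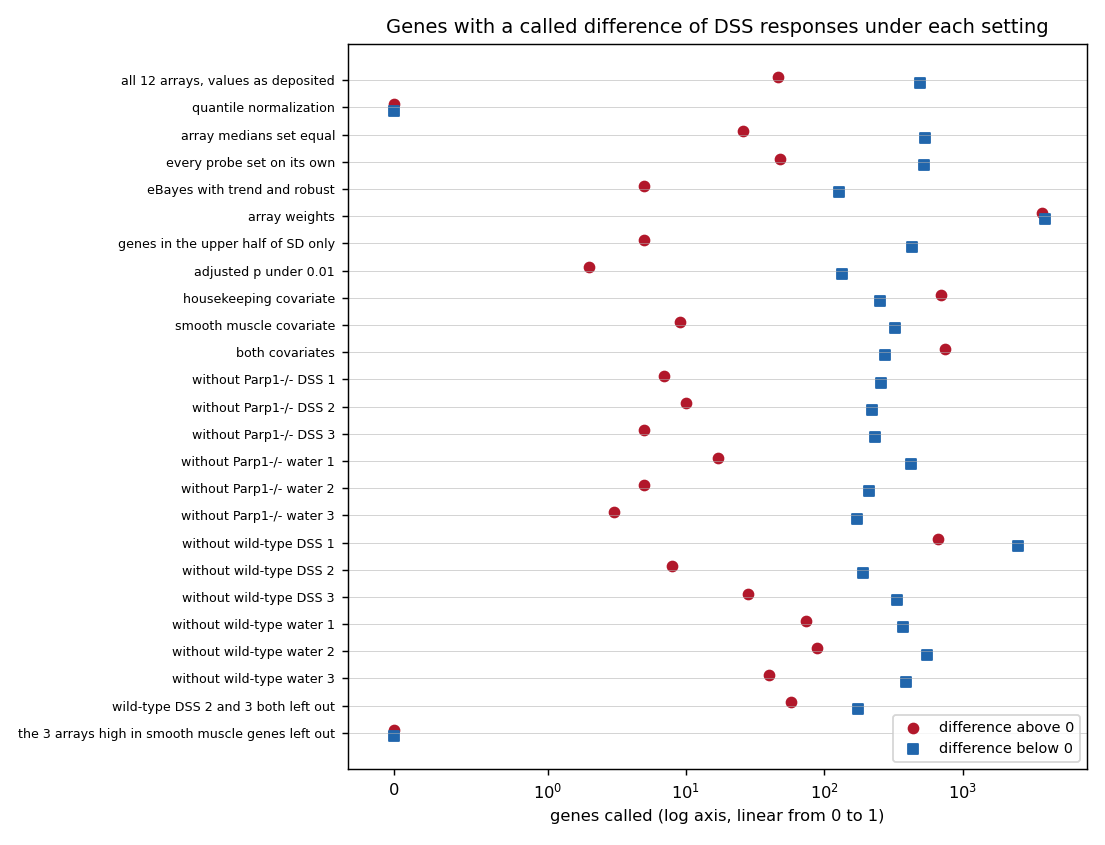
Each row is 1 setting of the test, and the horizontal axis counts genes called with a difference above 0 (circles) or below 0 (squares) on a log scale that is linear below 1. Calls below 0 outnumbered those above 0 with the values as deposited, 496 against 46, and the order turned round with the housekeeping covariate, 252 against 704, while quantile normalization and leaving out the 3 arrays high in smooth muscle genes left 0.

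MicroRNAs are short RNAs that pair with messenger RNA through a seed near their 5′ end, and their genes were measured at 400 loci, of which 8 were called, 4 in each direction. That is 2.0% of them, near the 2.54% called in both directions over all genes. The nearness holds for the sum only, since over all genes 0.216% were higher and 2.33% lower. The part of a locus that its probe set reads is not stated, and the values are not levels of mature miRNA. These genes were named after their values were seen. Higher were Mir103-2 at 1.59 ± 0.37, Mir128-2 at 1.22 ± 0.20, Mir142 at 1.12 ± 0.25 and Mir3087 at 1.23 ± 0.21, each with wild-type water above the other 9 arrays. Lower were Mir692-1 at -2.53 ± 0.42, Mir1954 at -2.22 ± 0.49, Mir703 at -2.09 ± 0.45 and Mir449b at -1.48 ± 0.26, each with wild-type water below the others. With 1 array left out, Mir103-2 and Mir142 were called in 2 of 12 fits and Mir703 and Mir1954 in 3. Mir103-2, Mir142, Mir3087, Mir692-1 and Mir703 lost the call with the housekeeping covariate. Mir128-2, whose call held with each array left out, was at -0.06, -0.14 and -0.05 after DSS and -0.16, -0.01 and -0.11 in water in Parp1-/- mice, against 0.27, 0.16 and 0.01 after DSS and 1.20, 1.46 and 1.42 in water in wild-type mice. Wild-type water was far above the 9 others, which lay close to 0. Mir142, a locus active in blood cells, was at 0.32, 0.00042 and -0.00042 after DSS and -0.36, -0.0019 and -0.28 in water in Parp1-/- mice, against -0.07, 0.11 and -0.0029 after DSS and 0.997, 0.93 and 0.49 in water in wild-type mice. Its wild-type water values were highest, with wild-type water 3 closest to the rest. The mature sequences of 4 of these loci are shown, 2 of them higher and 2 lower, to let their targeting seeds be compared, and 7 of the 8 loci had one in the RefSeq table (GRCm38.p6). They are written 5′ to 3′ with the seed, bases 2 to 8, in capitals. The miR-128-3p sequence lies at chr9:112118644-112118664 on the minus strand, the 5p arm of miR-142a at chr11:87756867-87756887 and its 3p arm at chr11:87756903-87756925 on the plus strand, miR-692 at chr17:6895259-6895279 and miR-703 at chr5:98475616-98475636, both on the minus strand.
mmu-miR-128-3p: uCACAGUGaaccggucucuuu
mmu-miR-142a-5p: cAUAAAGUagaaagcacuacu
mmu-miR-142a-3p: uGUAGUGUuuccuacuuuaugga
mmu-miR-692: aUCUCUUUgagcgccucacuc
mmu-miR-703: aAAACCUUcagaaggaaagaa
No 2 of these 5 sequences shared a seed.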

How the data were processed

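Total colon RNA from 12 mice was read on Affymetrix arrays, 1 per mouse, per the labels' protocols; no batch or scan date is stated. The authors deposited a table of log2 values for 31693 probe sets, and their software and normalization are not stated. Every probe set had a median of 0 across arrays (largest deviation 5e-07), so values were centred per probe set. The log base and the direction stay unknown; base 2 and larger for more RNA were assumed. The medians of the array columns are between -0.0438 and 0.0999. Signal over background is unknown, and the number of arrays limits the precision: the median SE of a difference of responses was 0.338. No 2 arrays held identical values.

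Probe sets with 1 gene symbol in the platform's annotation, 22586 of them, were averaged per gene into 21314 genes, 20283 with 1 probe set; 1756 with several symbols and 7351 with none were left out. A model of 4 group means was fitted by limma 3.58.1 (lmFit and eBayes, R 4.3.3), and the contrast (Parp1-/- DSS minus Parp1-/- water) minus (wild-type DSS minus wild-type water) was tested, with Benjamini-Hochberg adjustment over all genes and calls at an adjusted p under 0.05. The p-values measure the spread between mice, which were separate animals. The model was tested on simulated data in which each gene varied independently. Those data held no shift shared by the genes of an array, so they cannot show how such shifts affected the calls. Since centred values hold no brightness, a filter on the SD stood in for one on dim probe sets.

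The comparison, the gene lists and the alternatives were chosen with earlier results of these data known. The text names Parp1, the 10 called genes with the largest difference in each direction, and in each list described up to 4 called members of largest difference, otherwise the 2 of smallest p. Predicted genes, small RNAs, smell receptors and immune segments were passed over, and genes named after their values were seen are said to be so. Alternatives were quantile normalization, equal array medians, single probe sets, trended and robust eBayes, array weights, genes of high SD, an adjusted p under 0.01, the housekeeping and smooth muscle means as covariates, each array left out, and 2 sets of arrays left out. Tables were handled with Python 3.11.15 and pandas 2.3.3 and drawn with matplotlib 3.10.9.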

Additional observations from a re-analysis of the deposited data

Results flagged for a closer look

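A total of 74 called genes named above met the test of a difference between the DSS responses of the 2 genotypes, which is the comparison itself. Values are that difference, Parp1-/- minus wild type, in log2 units. Groups of 3 mice are too small for a test of single outlying arrays. Higher in Parp1-/- mice were Slpi at 3.46, Bcr at 2.08, Psme2 at 2.06, Mir103-2 at 1.59, Rnase2b at 1.46, Ndufb3 at 1.37, Polg2 at 1.35, Defb3 at 1.24, Mir3087 at 1.23, Mir128-2 at 1.22, Ly6k at 1.13, C8g at 1.12, Mir142 at 1.12 and Rps27 at 1.11. Lower by the most were Adamdec1 at -4.64, n-R5s136 at -3.54, Reg3g at -3.51, Cnn3 at -3.47, Cox20 at -3.25, Mob1b at -3.16, Acap2 at -3.06, Senp6 at -3.02, Cct4 at -2.99, Cript at -2.95, Atad1 at -2.95 and Arhgap42 at -2.92. Next came Msl2 at -2.92, Cks2 at -2.92, Gab2 at -2.91, Ube2g1 at -2.90, Cdk1 at -2.72, Itga2 at -2.70, Hmgcs1 at -2.65, Mir692-1 at -2.53, Klk1 at -2.47, Rps4x at -2.40, Nampt at -2.29 and Agr2 at -2.27. These were followed by Rpl10a at -2.23, Mir1954 at -2.22, Muc2 at -2.19, Psma2 at -2.17, Canx at -2.17, Rpl4 at -2.17, Psmd2 at -2.16, Lypd8 at -2.15, Cdh17 at -2.14, Mir703 at -2.09, Clock at -2.05 and Igkv1-133 at -2.05. Then came Car1 at -2.04, Uqcrc2 at -2.02, Muc13 at -1.996, Mki67 at -1.97, Acaa2 at -1.92, Ywhaz at -1.88, Ndufa10 at -1.83, Cdh1 at -1.82, Ceacam1 at -1.81, Hadh at -1.79, Prom1 at -1.79 and Hnrnpk at -1.74. The smallest of the lower ones were Psmb7 at -1.72, Zg16 at -1.71, Nr1d2 at -1.67, Plk1 at -1.67, Mir449b at -1.48, Rps6 at -1.46, Pdia3 at -1.43, Ywhah at -1.39, Mcm4 at -1.35, Ndufs3 at -1.28, Naca at -1.18 and AF357399 at -1.17. None of the 74 changed sign under any alternative that gave it a value, and none was called after quantile normalization, where the smallest adjusted p of any gene was 0.192 by limma and 2073 genes had an unadjusted p under 0.05.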

How the results depend on the processing

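With the values as deposited, 46 genes had a higher and 496 a lower DSS response in Parp1-/- mice. The counts of higher and lower genes were 0 and 0 after quantile normalization and without the 3 arrays high in smooth muscle genes (2073 and 1121 genes at an unadjusted limma p under 0.05). They were 26 and 539 with equal array medians, 48 and 530 for single probe sets, 5 and 128 with trend and robust options, 5 and 429 among genes of high SD, and 2 and 134 at an adjusted p under 0.01. Array weights, whose estimation did not converge, gave 3726 and 3949. The housekeeping covariate gave 704 and 252, the smooth muscle covariate 9 and 323, and both together 748 and 277. Without wild-type DSS 2 and 3 they were 58 and 176. Leaving out 1 array gave 3 to 670 higher and 174 to 2508 lower genes. The counts were 7 and 256 without Parp1-/- DSS 1, 10 and 220 without its mouse 2 and 5 and 232 without its mouse 3. In Parp1-/- water they were 17 and 426 without mouse 1, 5 and 210 without mouse 2 and 3 and 174 without mouse 3. In wild-type DSS they were 670 and 2508 without mouse 1, 8 and 190 without mouse 2 and 28 and 338 without mouse 3. In wild-type water they were 74 and 369 without mouse 1, 89 and 552 without mouse 2 and 40 and 390 without mouse 3. The cause of these shifts was not tested. No called gene named in the text reversed. With the housekeeping covariate 34 of the 74 lost their call, and with both covariates 37. No paired analysis was possible because the labels give the mice of different groups no shared replicate number. Signal over background is unknown, so a limit set by dim probe sets could not be assessed.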
